A study of Mus musculus with 8 samples.

Results

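The comparison set RAW264.7 cells given interleukin-13 (IL-13) alone against the same cells given all-trans retinoic acid (ATRA) alone. RAW264.7 is an established mouse macrophage-like line transformed by Abelson murine leukaemia virus. The 4 arrays of this comparison, of 8 in the study, were taken by their labels: the IL-13 arrays at 12 h and 24 h and the ATRA arrays at 12 h and 24 h. Untreated cells at both times (2 arrays) are given beside them. Cells given both agents (2 arrays) entered the estimate of spread. They also entered the filter for signal above background, the choice of each gene's probe and the model with time interactions. The labels call the IL-13 cells M2 macrophages and the ATRA and untreated cells unpolarized, and they give no dose for either agent. Total RNA was hybridised in 1 colour (Cy3) to Agilent whole mouse genome arrays. Each agent had 1 array per time, with slide 1 holding the 12 h arrays and slide 2 the 24 h arrays, and every difference was taken within a time. Since the labels do not state separate cultures, the p-values speak of the spread among these arrays alone, which may be technical.

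IL-13 signals through a receptor of IL-4 receptor alpha and IL-13 receptor alpha chains to Janus kinases and the transcription factor STAT6. STAT proteins bind a palindrome of TTC and GAA with a short spacer, and their targets include feedback inhibitors of the SOCS family and the genes of alternative (M2) macrophage activation. ATRA enters the nucleus and binds retinoic acid receptors, which pair with retinoid X receptors on direct repeats of a 6-base core. Its known targets include its own receptor Rarb, the enzymes that break retinoids down and the transglutaminase Tgm2.

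Promoters of 6 genes are shown first, so that the letters can be read beside the signals. The genes were not picked by size of difference alone, so these 6 promoters do not stand for either side. Each runs 5′ to 3′ on the gene's strand from 250 bases before to 50 bases after the start, from RefSeq on GRCm38.p6. Capitals mark TTC followed by GAA after 3 or 4 bases of any kind, or a direct repeat of a 6-base core with 1, 2 or 5 bases between the copies, searched on both strands. A core was AGGTCA. The form GGTTCA was accepted in its place. So was the form AGTTCA. Position 0 is the first base after the 250 upstream bases.
Cish: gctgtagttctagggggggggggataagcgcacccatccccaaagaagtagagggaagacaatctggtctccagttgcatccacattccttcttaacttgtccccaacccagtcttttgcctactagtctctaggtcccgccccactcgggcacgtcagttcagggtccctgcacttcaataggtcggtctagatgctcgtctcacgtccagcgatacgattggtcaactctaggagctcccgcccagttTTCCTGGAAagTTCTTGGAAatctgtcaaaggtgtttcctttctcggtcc
Itgax: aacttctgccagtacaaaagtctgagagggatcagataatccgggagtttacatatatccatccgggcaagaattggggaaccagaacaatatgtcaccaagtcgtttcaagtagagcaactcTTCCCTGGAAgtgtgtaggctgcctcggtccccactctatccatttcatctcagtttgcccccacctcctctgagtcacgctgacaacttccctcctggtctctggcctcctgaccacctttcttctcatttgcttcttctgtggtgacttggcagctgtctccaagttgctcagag
Edn1: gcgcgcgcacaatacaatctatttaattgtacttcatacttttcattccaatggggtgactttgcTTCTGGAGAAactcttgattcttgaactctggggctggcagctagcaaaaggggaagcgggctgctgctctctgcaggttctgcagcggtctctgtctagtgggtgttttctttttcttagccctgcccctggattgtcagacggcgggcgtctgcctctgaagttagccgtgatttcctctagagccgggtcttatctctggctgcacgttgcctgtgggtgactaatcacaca
Mrc1: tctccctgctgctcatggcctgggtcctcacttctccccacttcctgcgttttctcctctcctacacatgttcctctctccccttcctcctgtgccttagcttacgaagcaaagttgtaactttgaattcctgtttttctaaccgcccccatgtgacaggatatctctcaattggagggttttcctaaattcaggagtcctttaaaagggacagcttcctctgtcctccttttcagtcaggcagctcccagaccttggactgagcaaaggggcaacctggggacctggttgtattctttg
Rarb: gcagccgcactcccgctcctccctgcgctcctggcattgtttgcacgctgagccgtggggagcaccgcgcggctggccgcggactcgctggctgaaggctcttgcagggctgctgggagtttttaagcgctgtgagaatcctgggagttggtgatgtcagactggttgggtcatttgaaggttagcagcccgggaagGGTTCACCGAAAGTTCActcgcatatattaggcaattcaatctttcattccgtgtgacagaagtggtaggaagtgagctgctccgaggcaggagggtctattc
Camkk1: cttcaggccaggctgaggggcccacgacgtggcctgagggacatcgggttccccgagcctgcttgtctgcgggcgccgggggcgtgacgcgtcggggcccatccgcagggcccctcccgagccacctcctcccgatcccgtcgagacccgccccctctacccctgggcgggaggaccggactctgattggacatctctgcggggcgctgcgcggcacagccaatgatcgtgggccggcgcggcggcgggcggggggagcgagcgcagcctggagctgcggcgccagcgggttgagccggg
The Cish promoter (chr9:107296409-107296708, plus strand) held the pair with 3 bases between at 0 and at 11. Itgax (chr7:128129300-128129599, plus strand) held the pair with 4 bases between at -127 and Edn1 (chr13:42301226-42301525, plus strand) at -185. The window of Mrc1 (chr2:14229164-14229463, plus strand) held none of these letters, and neither did that of Camkk1 (chr11:73018738-73019037, plus strand). Rarb (chr14:16575427-16575726, minus strand) held a direct repeat with 5 bases between GGTTCA and AGTTCA at -53. The core AGTTCA joined the search after the promoters had been seen, and a pair with 3 bases between at -51 overlaps the repeat. Across 32851 promoters of all genes given, 6.95% held the pair with 4 bases between and 8.3% that with 3. Among genes tested here the shares were 5.56% and 6.93%. Among promoters of genes called higher with IL-13 they were 8.23% and 7.51%, and of genes called higher with ATRA 4.55% and 7.44%. A direct repeat of any of the 3 spacings lay in 0.37% of all promoters, in 0.09% of those of genes tested, in 1 promoter (0.18%) of genes called higher with IL-13 and in 1 (0.21%) of genes called higher with ATRA. Promoters not shown held matches on both sides. Of genes called higher with ATRA, Slco2b1 held the pair with 3 bases between at 13 and, from another start, at -133. Slc12a5 held the pair with 4 bases between at -205 and -129. Of genes called higher with IL-13, Batf3 held the pair with 3 bases between at -239 and Clec4a2 at -42. These matches describe the letters only.

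Signals are given as log2 of the processed spot signal scaled to each array's 75th percentile, and a difference is IL-13 minus ATRA on that scale, so 1 unit is 2-fold. Of 15439 genes tested with limma, 577 were called higher with IL-13 (3.74%) and 574 higher with ATRA (3.72%), at an adjusted p under 0.05. All 1151 calls (7.46%) had the same sign at 12 h and at 24 h, and disagreement between times is part of the spread the test uses. The median difference over all genes was 0.03. At 12 h and again at 24 h, 338 genes read at least 2-fold higher with IL-13 (2.19%) and 323 at least 2-fold higher with ATRA (2.09%). The model with time interactions called 0 genes as different between 12 h and 24 h, with 1681 at an unadjusted p under 0.05. The number of calls depended on single arrays. It was 117 without the ATRA array at 24 h, 203 without that at 12 h, 273 without the IL-13 array at 24 h and 1144 without that at 12 h (391 higher with IL-13, 753 with ATRA). Without either untreated array it was 564, and without either array given both agents 556. Of 174 genes named under the rule and called, 45 stayed called whichever array was left out, and 0 changed sign under any alternative. Those 45 included Cish, Mrc1, Itgax, Vegfc, Myc, Edn1, Irf4, Batf3, Socs1, Il10, Cd74, Igf1, Timp1, Camkk1, Mlxipl, Slco2b1, Mmp9, Rarb, Nrip1, Car2, Cxcl14, C5ar1, Tbxas1 and Rbpms. Each of the others lost its call without at least 1 array, most often the ATRA array at 24 h (122 of the 174).

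**Figure D1:**
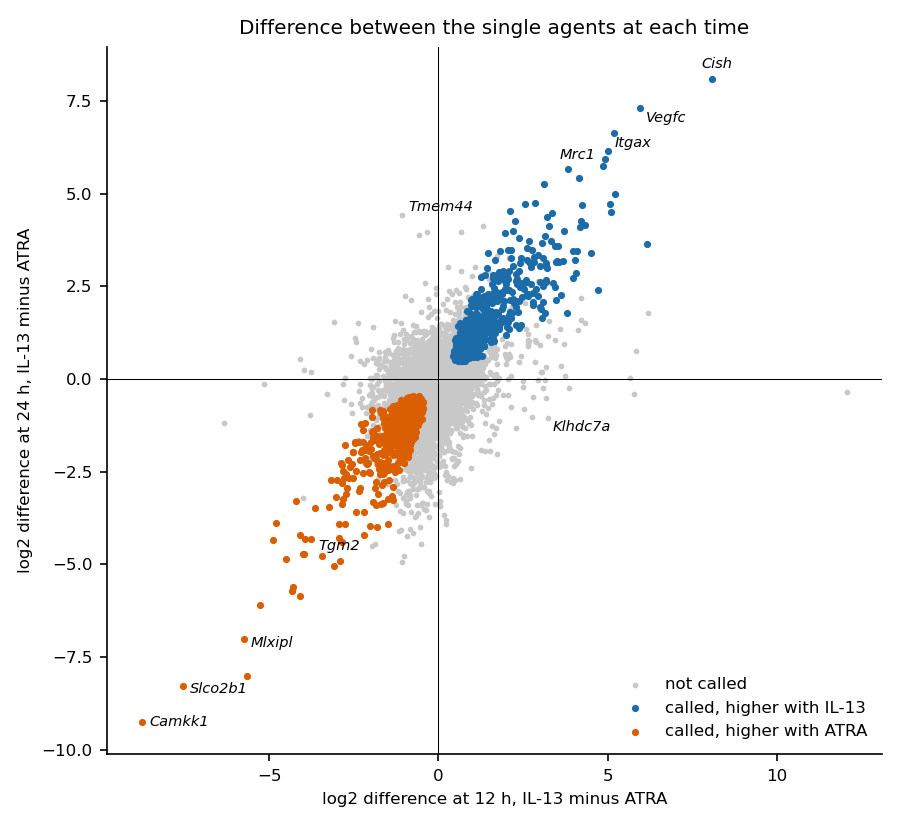
Log2 difference IL-13 minus ATRA at 12 h (horizontal) and at 24 h (vertical) for the 15439 genes tested, one point a gene. The 577 genes called higher with IL-13 lie in the upper right and the 574 called higher with ATRA in the lower left. Cish and Camkk1 sit at the ends, and uncalled genes such as Tmem44 and Klhdc7a differ in direction between the times.

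The arrays differed in brightness. The 75th percentile of the signal was 448.8 on the IL-13 array at 12 h and 743.4 on that at 24 h, against 576.1 and 517.7 for ATRA. Probes well above background made up 54.1% and 61.4% on the IL-13 arrays and 58.6% and 56.8% on the ATRA arrays. At 24 h the median difference was -0.14 over the 3282 genes whose probe had at least 50% G and C and 0.04 over the other 12157. At 12 h the medians were 0.08 and 0.04. The part of brightness and probe composition in the results was not tested. Of 9 macrophage markers, 8 were well above background on all 4 arrays, with Lyz2 between 16.95 and 17.48 and Csf1r between 15.18 and 15.73, and Mertk did not pass the filter. Markers of T and NK, B, neutrophil, mast and epithelial cells mostly failed the filter, and of the 14 tested only Cd5 was called (0.92 ± 0.18, adjusted p = 0.0428). The fibroblast list had a high summed signal on every array (15807.0 to 22797.4) through Acta2, a smooth muscle actin, at 13.94 to 14.47, with a difference of 0.09 ± 0.17 (adjusted p = 0.753). Col1a1, Col3a1, Dcn and Pdgfra of that list did not pass the filter.

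Cish and Mrc1 on one side and Camkk1 and Tgm2 on the other marked the agents on every array. Cish, a SOCS-family inhibitor of cytokine signalling, read 10.22 at 12 h and 10.68 at 24 h with IL-13 and 2.15 and 2.59 with ATRA. Untreated cells read 1.40 and 1.0, and of these 6 arrays only those given IL-13 were well above background. Cish was at least 161-fold higher with IL-13 (adjusted p = 0.00171). Mrc1, the macrophage mannose receptor, read 8.37 and 9.47 with IL-13, 3.49 and 3.73 with ATRA and 4.01 and 3.46 in untreated cells. The ATRA and untreated values overlapped and both IL-13 values lay far above them, with a difference of 5.31 ± 0.37 (limma standard error, as all errors here; adjusted p = 0.00548). Camkk1, a kinase that activates calcium and calmodulin-dependent kinases, read 10.14 and 10.59 with ATRA and 1.39 and 1.34 with IL-13. Untreated cells read 0.75 and 2.11, so Camkk1 was above background with ATRA alone of these 3 treatments and at least 152-fold higher than with IL-13 (adjusted p = 0.00276). Tgm2, a protein cross-linking enzyme, read 13.12 and 13.78 with ATRA, 9.37 and 9.48 with IL-13 and 9.48 and 8.43 in untreated cells. The IL-13 and untreated values overlapped, and the difference of -4.03 ± 0.39 (adjusted p = 0.00959) was nearly the same on 2 further Tgm2 probes (-4.01 and -4.06). The Tgm2 call was lost without the ATRA array at 24 h, while those of Cish, Mrc1 and Camkk1 were kept without each array in turn.

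**Figure D2:**
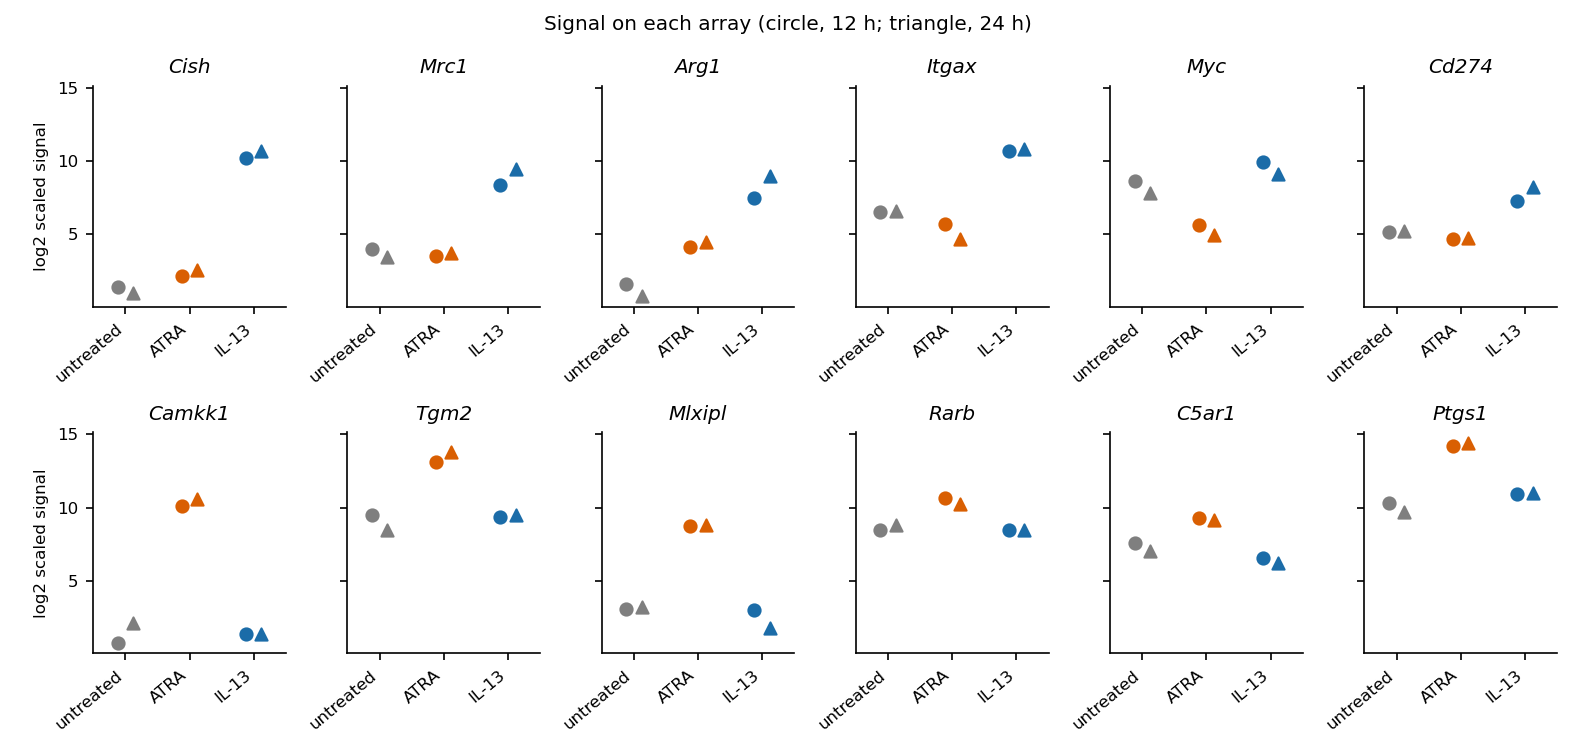
Log2 scaled signal (vertical) of 12 genes on each untreated, ATRA and IL-13 array; circles are 12 h and triangles 24 h, 1 array each. In the upper row the IL-13 arrays lie highest and in the lower row the ATRA arrays. Myc lies lower with ATRA (5.60 and 4.96) than in untreated cells (8.62 and 7.84).

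Within the IL-13 pathway the agents differed at the feedback inhibitors Cish and Socs1, at 2 receptor chains and at Jak2, while Stat6 was not called. Of 26 genes of the receptor and its JAK-STAT pathway, 25 were tested, 4 were called higher with IL-13 and 1 higher with ATRA (20%, against 7.46% of all genes), and the median difference was 0.03. Besides Cish, the inhibitor Socs1 read 9.77 and 9.05 with IL-13 and 6.32 and 6.58 with ATRA, beside 6.99 and 6.61 untreated. The ATRA and untreated values of Socs1 lay close together (2.96 ± 0.24 between the agents, adjusted p = 0.00689). Il13ra2, the decoy receptor that binds IL-13, read 6.13 and 5.68 with IL-13 and 1.03 and 1.17 with ATRA, below background. Il13ra2 was at least 6.91-fold higher with IL-13 (adjusted p = 0.0143), a call lost without either ATRA array or without the IL-13 array at 24 h. Il4ra, the signalling chain shared by the IL-4 and IL-13 receptors, went the other way. It read 7.69 and 7.73 with ATRA, 6.66 and 5.97 untreated and 5.46 and 5.19 with IL-13, so the untreated values lay between the agents (-2.38 ± 0.20, adjusted p = 0.00708). Without the ATRA array at 24 h the list had 2 calls higher with IL-13 and 0 higher with ATRA. Jak2 was 1.08 ± 0.18 higher with IL-13 (adjusted p = 0.0319), and 0.70 higher on a second probe above background on all 8 arrays. The Jak2 call was lost in 10 of 18 alternatives. These included the fit without a time term, the fit of only the 4 arrays compared and 7 of 8 fits with 1 array left out. Stat6, Stat3, Stat5a, Stat5b and Il13ra1 were not called.

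Markers of alternative activation had the largest share of members called among the 37 lists. The lists were chosen with earlier results of these data known, so this rank is a description only. Of 33 markers, 23 were tested, and 13 were called higher with IL-13 and 2 higher with ATRA. The share called was 65.2%, against 7.46% of all genes, with a median of 1.90. The other 10, among them Retnla, Ccl17 and Ccl22, did not pass the filter, so the counts cover only members that passed. Arg1, the arginase that diverts arginine from nitric oxide, read 7.48 and 8.98 with IL-13, 4.12 and 4.50 with ATRA and 1.57 and 0.78 in untreated cells. ATRA cells were thus above background for Arg1 on both arrays and untreated cells on neither. The difference between the agents was 3.92 ± 0.50 (adjusted p = 0.0179) and lost its call without either ATRA array. The transcription factor Irf4 read 6.35 and 6.64 with IL-13 and 3.63 and 4.09 with ATRA (2.64 ± 0.15, adjusted p = 0.00421). Egr2, a zinc finger factor, read 12.27 and 12.03 against 9.32 and 9.79 (2.60 ± 0.30, adjusted p = 0.0141). Neither pair overlapped. Untreated values lay just below the ATRA values for Irf4 (3.12 and 3.11) and overlapped them for Egr2 (9.83 and 9.71). Klf4, a zinc finger factor of macrophage polarization, had another arrangement. Its IL-13 values (12.31 and 12.56) overlapped the untreated values (12.60 and 12.26), and its ATRA values were lower (10.51 and 9.67; 2.34 ± 0.26 between the agents, adjusted p = 0.0127). The 2 members higher with ATRA were Tgm2 and Stab1, a scavenger receptor of endothelium and macrophages (11.06 and 10.92 with ATRA, 8.16 and 6.0 with IL-13; -3.91 ± 0.56, adjusted p = 0.0243; -1.82 on a second probe). The eosinophil chemokine Ccl24 was not called (-1.37 ± 0.42, adjusted p = 0.107), and it was higher than untreated with each agent, by 3.17 with IL-13 and 4.54 with ATRA. The list without the ATRA array at 24 h had 6 calls higher with IL-13 and 0 with ATRA.

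**Figure D3:**
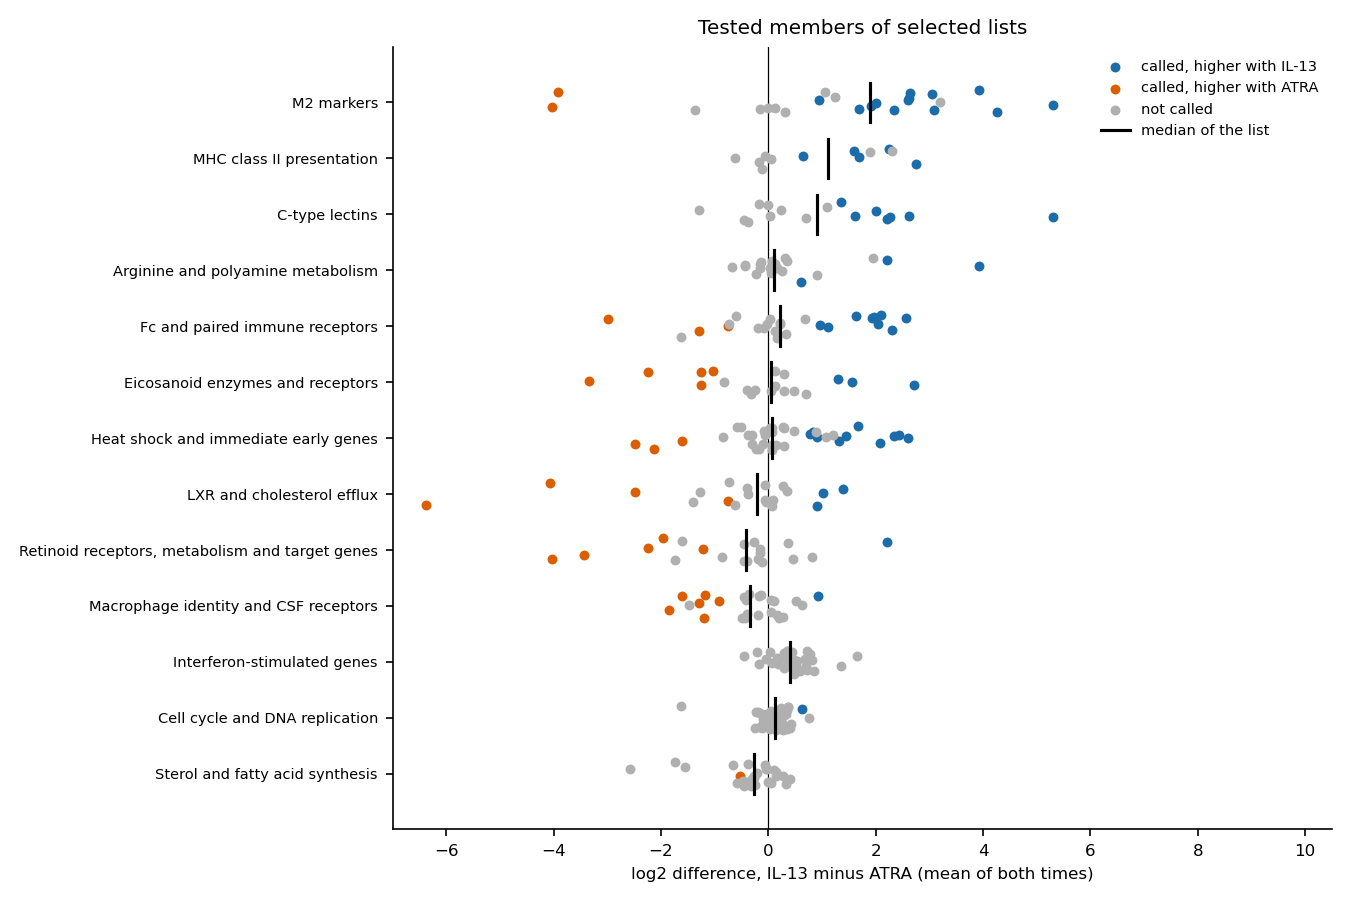
Log2 difference IL-13 minus ATRA (horizontal, mean of both times) of every tested member of 13 lists, one point a gene; black bars are list medians. M2 markers have their median at 1.90 and MHC class II genes at 1.12, while interferon-stimulated genes spread around 0.40 with no called member.

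Surface receptors of innate immune cells were divided between the agents. Of 16 tested C-type lectins, which bind sugars, 7 were called higher with IL-13 and 0 higher with ATRA (median 0.90), a count that was 1 without the ATRA array at 24 h. Besides Mrc1 these included Clec4b1 (13.27 and 13.41 with IL-13, 11.28 and 10.85 with ATRA; 2.27 ± 0.21, adjusted p = 0.00867), Clec4a2 (2.21 ± 0.17, adjusted p = 0.00686) and the galactose lectin Mgl2 (2.62 ± 0.52, adjusted p = 0.0463). For Clec4b1 and Clec4a2 the untreated values lay between the agents. The share of tested C-type lectins called was 43.8%, against 7.46% of all genes. Of 25 tested Fc and paired receptors 9 were higher with IL-13 and 3 with ATRA (48% called; median 0.22). Fcgr2b, the inhibitory Fc receptor for IgG, read 10.17 and 10.59 with IL-13 and 7.37 and 8.26 with ATRA (2.57 ± 0.34, adjusted p = 0.0199; 2.48 and 2.66 on other probes). Pirb, an inhibitory receptor for MHC class I, read 10.35 and 10.79 with IL-13, 10.15 and 10.31 untreated and 8.47 and 8.46 with ATRA (2.10 ± 0.18, adjusted p = 0.00708). For Pirb the ATRA arrays stood apart, below the IL-13 and untreated arrays. In contrast Fcgr1, the high-affinity activating receptor, read 14.73 and 14.69 with ATRA and 13.63 and 13.22 with IL-13 (-1.29 ± 0.16, adjusted p = 0.016). The sialic acid receptor Siglec1 was also higher with ATRA (-2.99 ± 0.44, adjusted p = 0.025), and so was the activating receptor Trem1 (-0.75 ± 0.13, adjusted p = 0.0368). Cd300lf was called at 2.05 ± 0.25 (adjusted p = 0.0152), but a second probe, above background on all 8 arrays, read -0.86. The receptor list had 1 call without the ATRA array at 24 h.

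Genes of MHC class II presentation leaned to IL-13. Of 12 tested, 5 were called higher with IL-13 (H2-DMb1, Cd74, H2-DMb2, H2-DMa and Rfxank) and 0 higher with ATRA. The share called was 41.7%, against 7.46% of all genes. The median was 1.12, or 1.01 with members below background at their bound. Cd74, the invariant chain, read 14.09 and 14.21 with IL-13, 12.37 and 12.40 untreated and 12.00 and 11.80 with ATRA. The IL-13 values of Cd74 stood apart from the untreated and ATRA values (2.25 ± 0.14, adjusted p = 0.00478). H2-DMb1, which helps load peptide, read 8.85 and 9.52 with IL-13, 8.16 and 8.02 untreated and 6.81 and 6.05 with ATRA, 3 levels that did not overlap (2.76 ± 0.32, adjusted p = 0.0146). H2-Ab1 was 1.88 ± 0.45 higher (adjusted p = 0.0688) and was not called. Ciita, the master regulator of class II genes, was below background with ATRA and at least 2.62-fold higher with IL-13 (adjusted p = 0.128), also not called. H2-Aa and H2-Eb1 did not pass the filter. The class II count was 1 without the ATRA array at 24 h. Of 20 MHC class I genes 0 were called, with a median of -0.07.

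Among 14 dendritic cell genes, 4 were called higher with IL-13 (Itgax, Batf3, Irf4 and Id2) and 2 higher with ATRA (Irf8 and Cd83). The share called was 42.9%, against 7.46% of all genes. Itgax, the CD11c integrin, read 10.68 and 10.82 with IL-13, 6.51 and 6.58 untreated and 5.68 and 4.67 with ATRA (5.58 ± 0.31, adjusted p = 0.00384; 2.53 on a second probe). Batf3, a factor of cross-presenting dendritic cells, read 8.01 and 8.54 with IL-13, 5.20 and 5.25 with ATRA and 4.03 and 4.45 untreated (3.05 ± 0.15, adjusted p = 0.0029). Both agents thus lay above untreated cells for Batf3, by 4.03 (adjusted p = 0.00403) with IL-13 and by 0.98 (adjusted p = 0.0485) with ATRA. Irf8, a factor of monocyte and dendritic cell development, read 12.90 and 12.91 with ATRA and 11.86 and 11.60 with IL-13 (-1.18 ± 0.14, adjusted p = 0.0152). Without either ATRA array the dendritic cell list had 3 calls, all higher with IL-13. Of 15 costimulatory and checkpoint molecules 3 were higher with IL-13 and 1 with ATRA (26.7%, against 7.46% of all genes). Cd274 (PD-L1), a ligand that restrains T cells, read 7.26 and 8.26 with IL-13, 4.65 and 4.73 with ATRA and 5.14 and 5.20 untreated (3.07 ± 0.25, adjusted p = 0.00708). The IL-13 values of Cd274 stood apart from the untreated and ATRA values. Tnfrsf14, a receptor of the TNF family, was higher with ATRA (-1.16 ± 0.14, adjusted p = 0.0149). This list had 0 calls without the ATRA array at 24 h.

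Cytokine genes had calls on both sides and arginine genes on the IL-13 side. Of 21 cytokine and inflammasome genes, 4 were called higher with IL-13 and 1 with ATRA (23.8%, against 7.46% of all genes; median 0.02), a count that was 1 in all without the ATRA array at 24 h. Il1b read 6.88 and 7.20 with IL-13, 4.79 and 5.12 untreated and 3.61 and 3.09 with ATRA, 3 separate levels (3.69 ± 0.35, adjusted p = 0.00907). Its antagonist Il1rn was also higher with IL-13 (1.90 ± 0.29, adjusted p = 0.0275). Il10, an anti-inflammatory cytokine, read 6.50 and 6.31 with IL-13, 4.70 and 5.01 untreated and 3.30 and 3.31 with ATRA, the last below background. Il10 was at least 8.54-fold higher with IL-13 than with ATRA (adjusted p = 0.00557). Ltb, a lymphotoxin chain, read 11.82 and 13.02 with ATRA and 10.03 and 9.93 with IL-13 (-2.44 ± 0.33, adjusted p = 0.021). Tnf was not called, and Il6 and Il12b did not pass the filter. Of 20 arginine and polyamine genes, Arg1, Ass1 and Asl were called higher with IL-13 and 0 higher with ATRA (15%, and 0 called without the ATRA array at 12 h), and the median was 0.10. Ass1, which remakes arginine from citrulline, read 7.45 and 8.47 with IL-13 and 5.71 and 5.79 with ATRA (2.21 ± 0.31, adjusted p = 0.0223). All 3 of these arginine calls were lost without the ATRA array at 12 h.

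Growth factors and genes of cell fusion held several of the largest differences. Of 19 growth and angiogenic factors, 6 were higher with IL-13 and 3 with ATRA (median 0.06), counts that were 3 and 1 without the ATRA array at either time or without the IL-13 array at 24 h. Vegfc, a lymphatic growth factor, read 8.24 and 8.37 with IL-13, 4.36 and 4.13 untreated and 2.31 and 1.05 with ATRA, below background. Vegfc was at least 36.5-fold higher with IL-13 than with ATRA (adjusted p = 0.00557). Vegfa went the other way, at 9.17 and 9.28 with ATRA and 8.24 and 8.27 with IL-13, the latter overlapping the untreated values of 8.25 and 8.27 (-0.97 ± 0.11, adjusted p = 0.0134; -0.76, -0.25 and -0.54 on other probes, and not called as the mean of all its probes). Edn1, the vasoconstrictor endothelin, read 5.34 and 5.58 with IL-13 and below background elsewhere, at least 5.06-fold higher than with ATRA (adjusted p = 0.00276). Igf1 read 15.89 and 15.97 with IL-13, 13.51 and 13.88 with ATRA and 13.48 and 13.41 untreated (2.24 ± 0.15, adjusted p = 0.00506), and 3 other Igf1 probes differed by 2.40 to 2.65. Bmp2, a bone morphogenetic protein, read 5.75 and 6.93 with ATRA and was below background with IL-13, where it was at least 9.36-fold lower (adjusted p = 0.00708). Of 17 osteoclast genes, 4 were higher with IL-13 and 2 with ATRA. The share called was 35.3% in this list and 47.4% in the growth factor list, against 7.46% of all genes. Ocstamp and Dcstamp, membrane proteins needed for fusion into multinucleated cells, differed by 4.89 ± 0.33 (adjusted p = 0.00515) and 3.16 ± 0.30 (adjusted p = 0.00943). Ocstamp read 11.29 and 10.64 with IL-13, 9.82 and 9.98 untreated and 6.22 and 5.93 with ATRA, so that the ATRA arrays stood furthest from untreated cells. Car2, a carbonic anhydrase, read 15.75 and 15.88 with ATRA and 13.57 and 13.75 with IL-13, the latter beside untreated values of 13.75 and 13.88 (-2.15 ± 0.13, adjusted p = 0.00421). Mmp9, a gelatinase, read 6.80 and 7.97 with ATRA and 3.38 and 3.20 with IL-13, where only 1 array was well above background (-4.10 ± 0.33, adjusted p = 0.00686; -5.02 on a second probe). Its inhibitor Timp1 was higher with IL-13, at 8.44 and 9.12 against 6.12 and 6.55 (2.44 ± 0.16, adjusted p = 0.00506). A second Timp1 probe, above background on all 4 arrays compared, differed by 1.0 on average. That probe differed by 2.185 at 12 h and by -0.183 at 24 h.

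Retinoid genes marked the ATRA arrays. Of 32, 20 were tested, 5 were called higher with ATRA (Tgm2, Hic1, Nrip1, Rarb and Dhrs3) and 1 higher with IL-13 (Dhrs9). The share called was 30%, against 7.46% of all genes, and the median was -0.42. Rarb, whose promoter holds the direct repeat shown above, read 10.63 and 10.25 with ATRA and 8.48 and 8.47 with IL-13, beside untreated values of 8.48 and 8.78. The ATRA values of Rarb stood apart and the others overlapped (-1.96 ± 0.18, adjusted p = 0.00817). Nrip1, a corepressor of nuclear receptors, read 11.14 and 11.32 with ATRA and 8.82 and 9.15 with IL-13, close to 9.54 and 9.41 untreated (-2.25 ± 0.15, adjusted p = 0.00491; -2.25 and -2.15 on other probes). Hic1, a transcriptional repressor, was below background with IL-13 and at least 3.04-fold higher with ATRA (adjusted p = 0.018), a call lost without either ATRA array or the IL-13 array at 24 h. Dhrs9, a retinol dehydrogenase, read 9.63 and 9.55 with IL-13, 8.46 and 8.63 untreated and 7.33 and 7.45 with ATRA, 3 separate levels (2.21 ± 0.26, adjusted p = 0.0146). The receptors Rara, Rarg, Rxra and Rxrb were not called, and Cyp26a1, Cyp26b1 and Crabp2 did not pass the filter. Without the ATRA array at 24 h the list had 2 calls, both higher with ATRA.

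The other genes with the largest excess under ATRA had diverse functions. Slco2b1, an organic anion transporter, read 8.97 and 8.73 with ATRA and 1.43 and 0.45 with IL-13, below background, and was at least 53.2-fold higher with ATRA (adjusted p = 0.0068). Csn3, a milk casein, read 9.09 and 9.78 with ATRA against 3.44 and 1.77, at least 79.6-fold (adjusted p = 0.00708; -2.07 on a second probe). The solute carrier Slc12a5, a potassium chloride cotransporter, read 8.84 and 8.79 with ATRA, 5.48 and 4.69 untreated and 4.87 and 4.07 with IL-13 (-4.35 ± 0.22, adjusted p = 0.0029). The kinase-related protein Fam20a and the tetraspanin Tspan18 were at least 11.3-fold and 10.6-fold higher with ATRA (adjusted p = 0.00276 and 0.00632), with IL-13 below background for both. A second Fam20a probe read -4.79, and 2 further Tspan18 probes were below background on all 8 arrays. Gfi1, a transcriptional repressor of myeloid cells, read 6.51 and 7.62 with ATRA against 2.5 and 2.89 (-4.37 ± 0.31, adjusted p = 0.00548). The adaptor Pram1 read 10.92 and 10.48 with ATRA, 8.86 and 7.81 untreated and 6.83 and 6.29 with IL-13, with the untreated values between the agents. It differed by -4.14 ± 0.21 (adjusted p = 0.0029; -3.83 on a second probe). A few of the leading genes had a probe that did not follow. Col14a1, a fibril-associated collagen, read 7.37 and 8.04 with ATRA and was below background with IL-13. It was at least 24.1-fold higher with ATRA on this probe (adjusted p = 0.00276), with 2.89 on a second probe that was above background on 1 of 8 arrays. Ltbp3, which stores latent TGF-beta, differed by -4.14 ± 0.13 (adjusted p = 0.00171) and its second probe, above background on all 8 arrays, by 0.21. Ndst1, a heparan sulfate enzyme, differed by -5.01 ± 0.39 (adjusted p = 0.00686), and by -0.46, -2.48 and -4.52 on its other probes.

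Several leading genes on the IL-13 side read below untreated cells under ATRA. Rgs16, which shortens G-protein signals, read 9.59 and 8.54 with IL-13, 7.58 and 7.19 untreated and 4.38 and 3.55 with ATRA (5.10 ± 0.40, adjusted p = 0.0068). Myc, a growth-promoting transcription factor, read 9.94 and 9.13 with IL-13, 8.62 and 7.84 untreated and 5.60 and 4.96 with ATRA (4.25 ± 0.19, adjusted p = 0.00276; 4.17 and 2.67 on other probes). Against untreated cells Myc was 1.30 higher with IL-13 (adjusted p = 0.0498) and differed by -2.95 with ATRA (adjusted p = 0.00876). Mycn differed the other way, at 13.11 and 13.08 with ATRA and 11.51 and 12.09 with IL-13 (-1.29 ± 0.23, adjusted p = 0.0373). Of 19 genes of the MYC network 2 were higher with IL-13 and 1 with ATRA (15.8%, against 7.46% of all genes). Kirrel3, an adhesion protein, read 6.87 and 5.79 with IL-13 and 6.74 and 6.54 untreated, which overlapped, while ATRA was below background, at least 9.26-fold lower than IL-13 (adjusted p = 0.00762). Oit3 read 7.06 and 7.05 with IL-13 and 3.57 and 3.88 with ATRA (3.33 ± 0.13, adjusted p = 0.00276). Ceacam19 and Neb differed by 4.78 ± 0.34 (adjusted p = 0.00557) and 4.74 ± 0.60 (adjusted p = 0.0178), while a second Ceacam19 probe, above background on 4 of 8 arrays, differed by 0.12 and 5 other Neb probes, none above background on more than 2 arrays, by -1.09 to 0.29. For Neb the ATRA value was 3.78 at 12 h and 1.78 at 24 h, the latter below background. The untreated values (0.78 and 0.74) were below background too, and the ATRA difference from untreated cells was not called (adjusted p = 0.1997). The glutamate transporter Slc17a6 differed by 4.14 ± 0.31 (adjusted p = 0.00632).

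Of 20 genes of liver X receptor targets and cholesterol efflux, 4 were higher with ATRA and 3 with IL-13 (median -0.22). The share called was 35%, against 7.46% of all genes. Mlxipl, the carbohydrate response factor ChREBP, read 8.75 and 8.81 with ATRA, 3.08 and 3.24 untreated and 3.01 and 1.79 with IL-13, both not well above background. On this probe Mlxipl was at least 50.7-fold higher with ATRA than with IL-13 (adjusted p = 0.00384; -2.65 on a second probe). Abca1, the cholesterol exporter, read 7.36 and 8.64 with ATRA, 5.65 and 6.34 untreated and 4.76 and 6.26 with IL-13. Its values were higher at 24 h than at 12 h under each treatment, and within each time ATRA was the highest (-2.49 ± 0.21, adjusted p = 0.00708). Apoc2, the cofactor of lipoprotein lipase, differed by -4.06 ± 0.65 (adjusted p = 0.0297), and Lpl, the lipase itself, by 1.40 ± 0.27 (adjusted p = 0.0447). Lpl was the brightest gene called higher with IL-13, at 16.15 at 12 h, beside 15.90 and 16.12 untreated and 14.88 and 14.47 with ATRA. Nr1h3, the receptor LXR alpha, was 1.02 ± 0.12 higher with IL-13 (adjusted p = 0.0146). Of 29 genes of fatty acid uptake, storage and oxidation, 6 were higher with IL-13, among them the fatty acid carriers Fabp4 (1.88 ± 0.35, adjusted p = 0.0416) and Cd36 (1.69 ± 0.23, adjusted p = 0.0209) and the receptor Pparg (0.94 ± 0.13, adjusted p = 0.0203). Angptl4 alone of them was higher with ATRA (-0.89 ± 0.13, adjusted p = 0.0255). The share called in this fatty acid list was 24.1%, against 7.46% of all genes. Without the ATRA array at 24 h the counts were 0 and 1 in the liver X receptor list and 0 and 0 in the fatty acid list, IL-13 first. Of 29 sterol and fatty acid synthesis genes only Acaca was called (-0.54 ± 0.11, adjusted p = 0.0466). Fasn differed by -2.59 ± 0.74 (adjusted p = 0.0961), with -1.10 at 12 h and -4.08 at 24 h.

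The 2 prostaglandin synthases went opposite ways. Ptgs1, the constitutive cyclooxygenase, read 14.17 and 14.44 with ATRA, 10.94 and 11.00 with IL-13 and 10.29 and 9.67 untreated (-3.34 ± 0.29, adjusted p = 0.00715). Ptgs2, the inducible one, read 9.54 and 9.38 with IL-13, 8.75 and 8.97 untreated and 7.75 and 8.03 with ATRA (1.57 ± 0.27, adjusted p = 0.0361). Tbxas1, thromboxane synthase, read 11.26 and 11.14 with ATRA, 8.75 and 9.16 with IL-13 and 6.92 and 6.86 untreated. Each agent therefore lay above untreated cells for Tbxas1, by 4.32 (adjusted p = 0.00405) with ATRA and 2.07 (adjusted p = 0.0207) with IL-13, and they differed by -2.25 ± 0.17 (adjusted p = 0.00643). The leukotriene enzyme Alox5 read 9.55 and 9.26 with IL-13, below both ATRA (11.20 and 10.12) and untreated cells (11.46 and 11.10; -1.25 ± 0.21 between the agents, adjusted p = 0.0339). Of 19 eicosanoid genes 3 were higher with IL-13 and 5 with ATRA (42.1%, against 7.46% of all genes), with a median of 0.05. Without the ATRA array at 24 h the counts were 0 and 1, and the call of Ptgs1 was lost.

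Complement, chemokine and chemokine receptor genes were split within each list. C5ar1, the receptor for the chemoattractant C5a, read 9.27 and 9.13 with ATRA, 7.55 and 7.02 untreated and 6.57 and 6.20 with IL-13, 3 levels that did not overlap (-2.82 ± 0.14, adjusted p = 0.0029). The formyl peptide receptors Fpr1 (-2.04 ± 0.31, adjusted p = 0.0262) and Fpr2, at least 4.34-fold (adjusted p = 0.0246), were also higher with ATRA. C4b and the C1 inhibitor Serping1 were higher with IL-13, C4b by 2.43 ± 0.44 (adjusted p = 0.0391) and Serping1 by at least 2.34-fold (adjusted p = 0.0263). C1qa (-2.01 ± 0.72, adjusted p = 0.147) and C1qc (-2.26 ± 0.85, adjusted p = 0.158) were not called between the agents, though both agents' values lay above the untreated values at both times, for C1qa by 3.31 with IL-13 (adjusted p = 0.0993) and 5.32 with ATRA (adjusted p = 0.0396). Of 20 complement genes 3 were higher with IL-13 and 1 with ATRA (20%, against 7.46% of all genes), and 2 in all without either ATRA array or the IL-13 array at 24 h. Of 16 tested chemokines, the monocyte chemokine Ccl7 was higher with IL-13 (7.63 and 7.02 against 4.54 and 4.94; 2.58 ± 0.42, adjusted p = 0.0311), and Cxcl14, Ccl6 and Ccl12 were higher with ATRA. Cxcl14 read 15.69 and 15.72 with ATRA and 12.96 and 12.62 with IL-13, the latter beside untreated values of 13.47 and 12.83 (-2.92 ± 0.18, adjusted p = 0.00462). Ccl6 read 10.33 and 10.59 with ATRA, 8.57 and 8.84 with IL-13 and 7.21 and 7.66 untreated, so both agents lay above untreated cells (-1.76 ± 0.20 between them, adjusted p = 0.0143). Without the array of either agent at 24 h the chemokine list, with 25% called, had 1 call. Of 14 chemokine and chemoattractant receptors 3 were higher with IL-13 and 5 with ATRA (57.1%), and 1 in all without the IL-13 array at 24 h. Cx3cr1, the fractalkine receptor, read 12.89 and 12.39 with IL-13 and 14.11 and 13.57 with ATRA, the latter overlapping the untreated values (-1.20 ± 0.12, adjusted p = 0.01).

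Genes of macrophage identity were mostly higher with ATRA where they were called. Of 25 tested, 6 were higher with ATRA (among them Cd33, Fcgr1, Cx3cr1, Irf8 and Mpeg1) and 1, Adgre1 (F4/80), with IL-13. The share called was 28%, against 7.46% of all genes, and the median was -0.35. Cd33, a sialic acid receptor of myeloid cells, read 8.37 and 9.03 with ATRA, 8.15 and 7.93 untreated and 6.71 and 7.48 with IL-13, 3 levels that did not overlap (-1.60 ± 0.29 between the agents, adjusted p = 0.0391). Adgre1 read 13.81 and 13.97 with IL-13 and 13.04 and 12.90 with ATRA (0.92 ± 0.13, adjusted p = 0.0247). The list had 0 calls without either ATRA array. Of 37 immediate early and heat shock genes, 10 were higher with IL-13 and 3 with ATRA (35.1% called; median 0.07). Those higher with IL-13 included Egr2, Atf3 (2.09 ± 0.20, adjusted p = 0.00958) and Hspa1a, at least 2.11-fold (adjusted p = 0.0128). Those higher with ATRA were Egr1, Egr3 and Dusp6. Egr1 read 11.52 and 12.05 with ATRA and 10.17 and 9.13 with IL-13 (-2.13 ± 0.36, adjusted p = 0.0332), and Egr3 6.26 and 6.92 against 4.63 and 3.58 (-2.49 ± 0.38, adjusted p = 0.0271). Members of 1 gene family, Egr2 on one side and Egr1 and Egr3 on the other, thus had calls in opposite directions. With 1 array left out, the call was lost in 2 of 8 fits for Egr2, 6 of 8 for Egr1 and 7 of 8 for Egr3. Dusp6, a phosphatase of the ERK kinases, read 12.02 and 12.30 with ATRA and 10.63 and 10.46 with IL-13 (-1.62 ± 0.17, adjusted p = 0.012). Without the IL-13 array at 24 h this list had 3 calls, all higher with IL-13.

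Of 30 solute carriers 3 were higher with IL-13 and 6 with ATRA, and of 35 iron, heme and antioxidant genes 2 and 4 (30% and 17.1%, against 7.46% of all genes). Both lists had 1 call when 1 array was left out, the ATRA array at 24 h for the solute carriers and the IL-13 array at 24 h for the iron genes. The copper transporter Slc31a2 was higher with IL-13 (1.93 ± 0.19, adjusted p = 0.00969) and the glucose transporter Slc2a6 with ATRA (-1.16 ± 0.13, adjusted p = 0.0127). Ceruloplasmin, Cp, read 9.56 and 10.48 with ATRA, 7.80 and 8.05 with IL-13 and 7.04 and 7.21 untreated (-2.09 ± 0.29, adjusted p = 0.0229). Mt2, a metallothionein, was the brightest gene called higher with ATRA, at 16.22 and 16.75 against 15.41 and 15.32 (-1.12 ± 0.19, adjusted p = 0.0353). Of 29 genes of G-protein and purinergic signalling 4 were higher with IL-13 and 5 with ATRA, and of 29 integrin and adhesion genes 3 and 3, the latter with the gap junction protein Gja1 at least 6.05-fold higher with ATRA (adjusted p = 0.0073). The share called was 31% in the G-protein list and 20.7% in the integrin list. The G-protein list had 1 call without either ATRA array and the integrin list 1 without that at 24 h. Of 17 matrix and protease genes 3 were higher with IL-13, led by coagulation factor F10 (9.12 and 9.22 against 5.14 and 6.49; 3.35 ± 0.42, adjusted p = 0.0174), and 2 with ATRA. Of 22 scavenger and apoptotic-cell receptors 4 were higher with IL-13 and 5 with ATRA, among them Gas6, a bridging ligand for dying cells (-2.20 ± 0.30, adjusted p = 0.0204). The share called was 40.9% in this list and 29.4% in the matrix list, against 7.46% of all genes. This scavenger list had 0 calls without the ATRA array at 24 h.

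Several programmes had 0 calls or few, against 7.46% of all genes. Of 33 interferon-stimulated genes 0 were called, with a median of 0.40 beside 0.03 for all genes. The nearest was Usp18, 1.65 ± 0.34 higher with IL-13 (adjusted p = 0.0503), which against untreated cells differed by -0.24 with IL-13 and -1.89 with ATRA. Of 40 cell cycle and replication genes only Ccne2 was called (0.63 ± 0.13, adjusted p = 0.0488; median of the list 0.13). In the unfolded protein response 2 of 26 were called, Atf3 higher with IL-13 and Hyou1 with ATRA (7.7%). A second Hyou1 probe, above background on all 8 arrays, differed by -0.048, and the mean of the Hyou1 probes was not called. Calcium and calmodulin genes gave 2 calls of 24 (8.3%), Camkk1 and Itpr1 (-0.75 ± 0.14, adjusted p = 0.0434), and the list's median was -0.06. Camkk2 and the CaM kinases Camk1, Camk1d and Camk2a were not called. The TNF superfamily and apoptosis gave 2 calls of 25 (8%). Lysosomal genes gave 5 of 34 (14.7%), Toll-like receptor and NF-kB genes 5 of 35 (14.3%) and glycolysis and hypoxia genes 5 of 33 (15.2%), shares above that of all genes, and each of these 3 lists had 0 calls without the ATRA array at 24 h or the IL-13 array at 24 h.

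**Figure D4:**
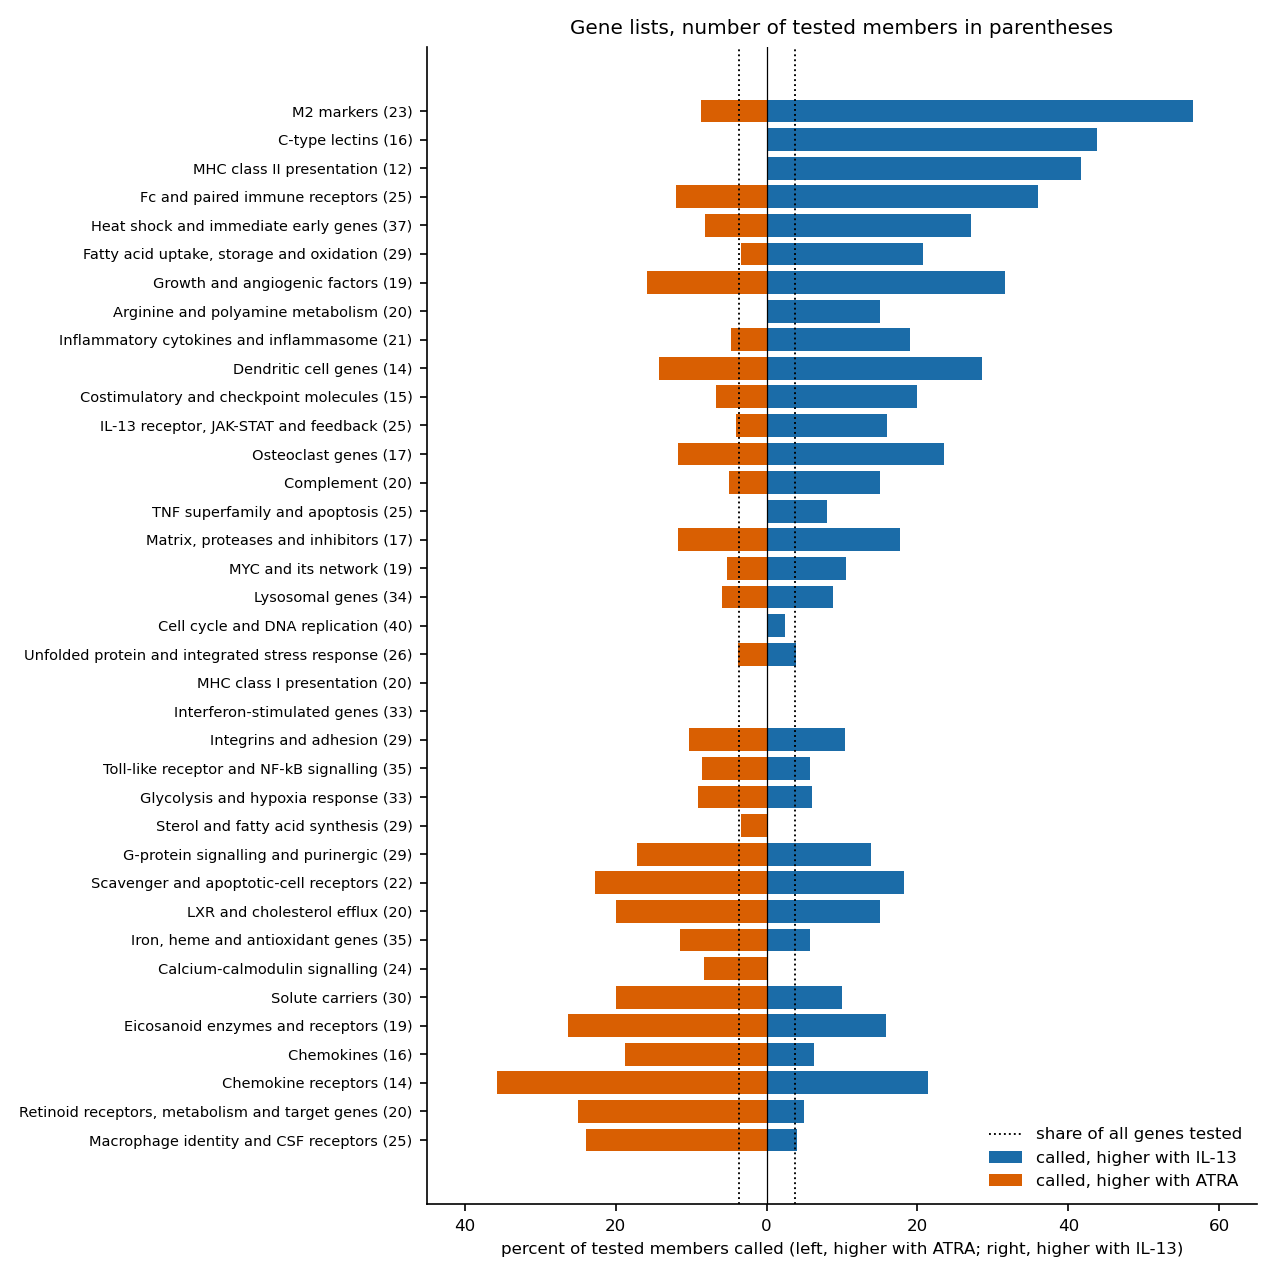
Percent of tested members called higher with IL-13 (blue, to the right) and higher with ATRA (orange, to the left) for 37 gene lists, with the number tested in parentheses; dotted lines mark 3.74% and 3.72%, the shares over all genes. M2 markers (13 of 23) lead towards IL-13, and macrophage identity genes (6 of 25) and retinoid genes (5 of 20) lean to ATRA.

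Beside untreated cells, which both comparisons share, 203 genes were called with IL-13 (1.31%) and 286 with ATRA (1.85%). Among the genes named, several arrangements recurred. Cish, Mrc1, Irf4, Egr2, Cd274 and Igf1 lay away from untreated cells with IL-13, with the ATRA difference not called. Camkk1, Tgm2, Rarb, Mlxipl, Car2, Nrip1 and Cxcl14 lay away with ATRA, with the IL-13 difference not called. Batf3 and Tbxas1 lay above untreated cells with each agent, both called. In Il4ra, C5ar1, Pram1, Rbpms and Il1b the untreated values lay between the agents at both times. Rbpms, an RNA-binding protein, read 7.68 and 7.58 with ATRA, 5.85 and 5.76 untreated and 5.03 and 4.92 with IL-13, and differed from untreated cells by 1.82 (adjusted p = 0.007) with ATRA and by -0.83 (adjusted p = 0.0389) with IL-13. Its difference between the agents, -2.66 ± 0.10 (adjusted p = 0.00276), was -2.65 at 12 h and -2.66 at 24 h.

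**Figure D5:**
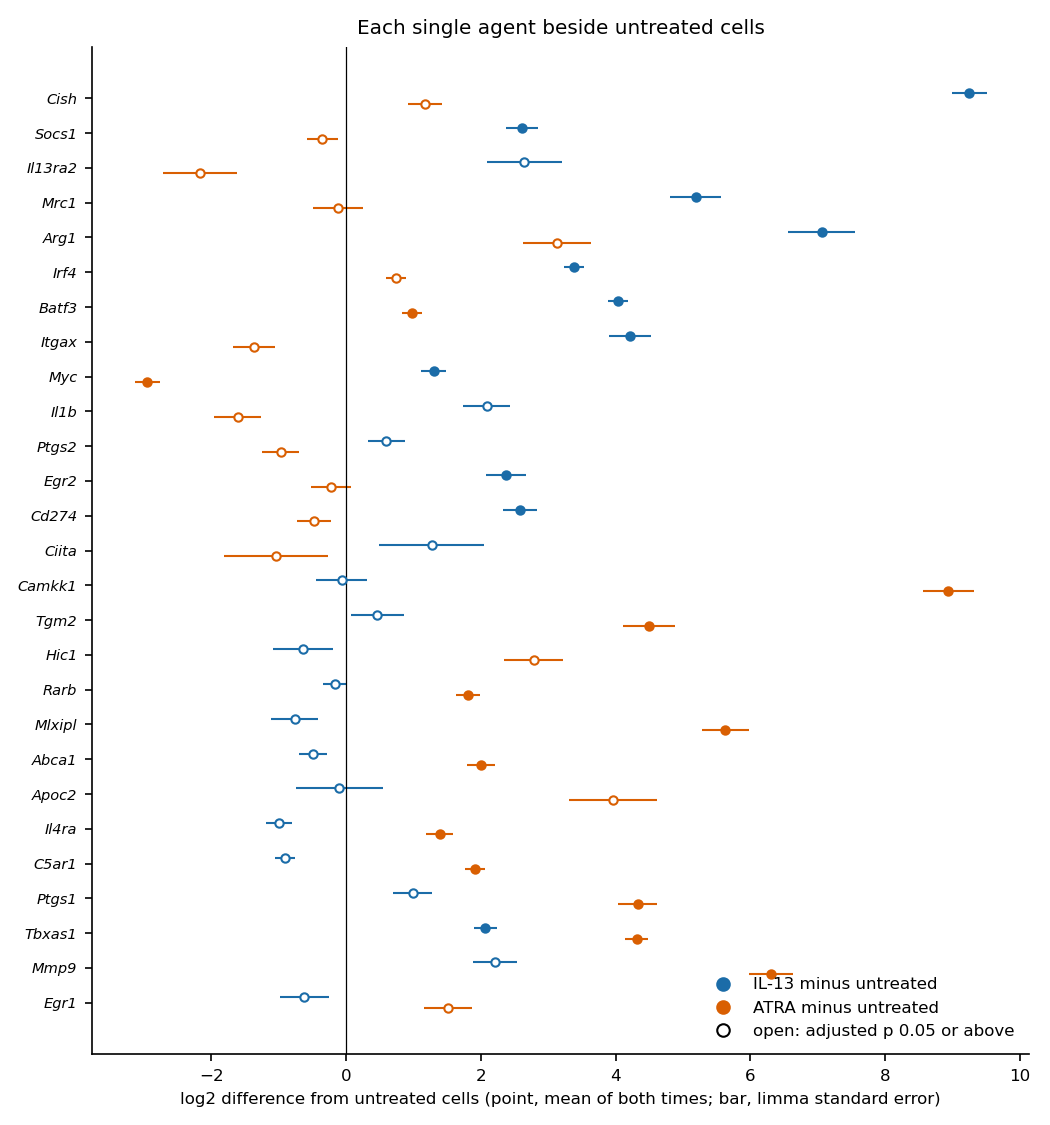
Log2 difference from untreated cells (horizontal) with IL-13 (blue) and with ATRA (orange) for named genes; points are means of both times, bars limma standard errors, and open points have an adjusted p of 0.05 or above. Cish, Mrc1 and Itgax have their long distance from 0 with IL-13, Camkk1, Mlxipl and Mmp9 with ATRA, and Batf3 and Tbxas1 lie above 0 with both.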

How the data were processed

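RNA of 8 RAW264.7 samples was read in 1 colour on Agilent arrays of design 014868. Spot intensities (processed signals) and flags were extracted by the authors with Agilent Feature Extraction, per the file headers, and log2 values of the same arrays were deposited by the authors with the method not given in the sources used here; they served as an alternative. From the intensities, control spots and outlier spots were left out, spots of a probe averaged, and log2 signals scaled to each array's 75th percentile. Other flags deposited in the files marked probes well above background. Of 41174 probes, 24040 passed a filter that asked for 1 or more treatments with the probe well above background at both times, and gave 15439 genes, each by its brightest probe; names came from accessions through RefSeq for 27668 probes, from symbols for 5589, from synonyms for 471 and from the file for 7446. The number of arrays, 1 per agent and time, limits the precision.

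limma 3.58.1 (R 4.3.3, statmod 1.5.0) fitted treatment and time over all 8 arrays, which share 1 estimate of spread, with 3 residual and 2.44 prior degrees of freedom. Genes are called at a Benjamini-Hochberg adjusted p under 0.05. A model with all pairs of interactions, with 1 residual degree of freedom, tested the difference between times. A probe below background on both arrays of an agent has only a bound, written as at least N-fold. It sets the brighter agent's mean against the dimmer agent's mean of, per array, the higher of the probe's signal and the lowest signal well above background. The fit was tested on simulated data. Named were the 15 called genes with the largest difference each way, 4 markers, up to 4 called members each way and 2 uncalled members of each list, the 6 smallest adjusted p and the brightest call each way. Members named without a value, and a few uncalled genes, fall outside that rule and were chosen after their values were seen. The comparison, its markers and the gene lists were chosen with earlier results of these data known. Counts over lists cover only members that passed the filter. Alternatives were quantile normalization, the authors' log2 values, normexp background correction (offset 50), other filters and probe rules, other models, and leaving out each array. Results on some genes are not reported here.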

Additional observations from a re-analysis of the deposited data

How the results depend on the processing

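With 1 array per agent and time, time and slide cannot be told apart, and the spread comes from all 8 arrays. The count of 1151 calls moved by over 1.5 times when dim probes were not filtered (21), when only the 4 arrays compared were fitted (121), with trend and robust settings (2155), and when single arrays were left out (from 117 to 1144). The cause of these changes in the count was not tested. It was 1177 with quantile normalization (619 higher with IL-13, 558 with ATRA), 1176 with the authors' values, 1154 with normexp (538 and 616), 1038 with the mean of a gene's probes, 867 without a time term (492 higher with IL-13, 375 with ATRA), 1093 with time as a random block and 1436 where all 8 arrays had to be above background. Genes 2-fold apart at both times, 661 in all, numbered 287 after normexp and 426 where all 8 arrays had to be above background. The difference between times was called in 783 genes after normexp and 31 with trend and robust settings, against 0. Of 174 named calls, 15 held in every setting in which they were tested: Batf3, C5ar1, Camkk1, Cish, Col14a1, Edn1, Fam20a, Itgax, Ltbp3, Mlxipl, Myc, Oit3, Pram1, Rbpms and Slc12a5. Of these, Camkk1, Cish, Col14a1, Edn1, Fam20a and Mlxipl were not tested where all 8 arrays had to be above background. No call changed sign, and every call already had the same sign at 12 h and at 24 h. Among uncalled genes the sign turned as single arrays were left out, with values from -2.302 to 0.071 for Bmp7, -1.129 to 0.021 for Cd3e, -1.757 to 0.134 for Col1a2, -0.66 to 0.073 for Pdgfrb and -0.019 to 0.739 for Hdc, and for Fscn1 (-0.045) after normexp; the cause was not tested. Signals below background limit the low genes to bounds. The replicate number is the time, so the time term is the replicate block that pairs the arrays, and the fit with no replicate block gave 867 calls.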

Other observations

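A small set of genes differed by at least 2-fold in opposite directions at the 2 times. They numbered 26, 14 higher with IL-13 at 12 h and 12 at 24 h, and in 7 of them all 4 arrays were above background. Saa3, an acute phase protein, differed by 1.37 at 12 h and -1.94 at 24 h. The tight junction protein Cldn3 differed by 2.75 and -1.03, the homeobox gene Nkx2-6 by 1.52 and -1.94 and the kinase subunit Phkg1 by 1.69 and -1.31. No such gene was called by the test of the difference between times.

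Some genes stood apart on a single array. Fem1b read 0.74 on the ATRA array at 12 h and 12.80 to 13.16 on the other 7 arrays. Aste1 read 8.29 on the IL-13 array at 12 h and 1.17 to 3.38 elsewhere. Rgma read 7.71 on the ATRA array at 12 h and 2.24 to 3.18 elsewhere. Olfr134, an olfactory receptor, read 6.96 on the IL-13 array at 12 h, 3.68 on that at 24 h and 0.78 to 1.92 elsewhere. None of these 4 genes was called between the agents.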
